A study of Mus musculus with 8 samples.

Results

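The lymphocyte fractions isolated from heart, liver and kidney allografts (tissue-infiltrating lymphocytes, TILs) were described across all genes, within T cells and within macrophages. The 3 TIL libraries held 21010 cells with at least 500 unique molecular identifiers (UMIs, the tags that count captured mRNA molecules), of 47542 such cells in the 8 libraries of the series. A cell was taken as a T cell when it held at least 2 UMIs of Cd3d, Cd3e, Cd3g and Trac together and none of Csf1r. It was taken as a macrophage when it held at least 1 UMI of Csf1r or at least 5 of C1qa, C1qb and C1qc together, with at most 1 UMI of the T-cell genes. 14244 cells met either definition, with 5182 T cells and 1721 macrophages in the library labelled heart, 3636 and 2438 in that labelled liver, and 1100 and 167 in the kidney library.

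Each library came from organs of BALB/c mice transplanted into C57BL/6 recipients and taken 7 days later. The labels give BALB/c, an age of 8 weeks and male sex to every library, and the study's donors and recipients were both 8 weeks old. No immunosuppressive drug was given to any group. Grafts were digested with collagenase, lymphocytes were separated on a Ficoll gradient, and the cells were read by Microwell-seq, in which barcoded beads capture the mRNA of cells in a microwell array. The study names 2 recipients per organ, and whether their cells were pooled is not given in the sources used here. All recipients were allografted, so that no untreated or syngeneic control stood beside these libraries. The cells of a graft hold donor and recipient leukocytes, and the gates do not tell them apart. With 1 library per organ there was no replicate and no test between organs. A difference between libraries cannot be told apart from a difference between organs, animals or preparations.

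T cells that enter an allograft recognise donor MHC molecules. CD8 T cells kill by releasing perforin and granzymes, and both CD4 and CD8 T cells secrete cytokines such as interferon gamma. Macrophages of a graft are donor cells that lived in the organ, such as the Kupffer cells of the liver, or recipient cells that arise from blood monocytes. Interferon gamma makes macrophages express CXCL9 and CXCL10, which attract T cells through CXCR3, and raises MHC class II on their surface. RNA released by broken cells can reach every well of a library and adds the same genes to each class of cells.

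The TIL libraries held 9306582 UMIs in that labelled heart, 8543672 in that labelled liver and 3935284 in the kidney library. T cells had a median of 823, 776 and 696.5 UMIs and macrophages of 842, 772.5 and 617. Levels are given in CPM, the UMIs of a gene per 1000000 UMIs of its class in a library. Parentheses hold 95% limits, exact Poisson limits for levels and exact binomial limits for shares of cells. Intervals cover counting error only. Ratios are log2 values with 1 CPM added to both levels, and a gene was counted in a comparison when its class held at least 50 UMIs over both libraries. A log2 ratio of at least 1 in size, or 2-fold, was the rule of size. Precision was lowest for macrophages of the kidney library, whose sum of 111994 UMIs makes 1 UMI worth 8.93 CPM (as for Fcna there) and makes 26.8 CPM the level of 3 UMIs, which was taken as what a count of 0 allows (the upper exact Poisson limit would be 32.9 CPM, as for Spic there). Folds written as at least set the measured level of a gene over the level of 3 UMIs in the library at 0, without the counting error of either, and levels at 0 carry that of 3 UMIs in parentheses. Pairs of TIL libraries shared 617, 123 and 132 of their 10000 barcodes, of which 600, 27 and 31 were cells in both.

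T cells made up 53.6% (52.6 to 54.6) of the cells in the library labelled heart, 38.9% (38.0 to 39.9) in that labelled liver and 54.9% (52.7 to 57.1) in the kidney library. Macrophages made up 17.8% (17.0 to 18.6), 26.1% (25.2 to 27.0) and 8.33% (7.16 to 9.63). After each cell was thinned to 500 UMIs, T cells were 39.7%, 27.4% and 40.4% and macrophages 16.4%, 22.2% and 7.83%, so that the order of the shares was kept. Both gates were checked against markers that they did not use. A list of 14 T-cell genes (Lck, Thy1, Trbc2 and others) summed to 8266, 6898 and 9073 CPM in T cells and to 2421, 2252 and 3081 CPM in macrophages of the libraries labelled heart and liver and of the kidney library. A list of 14 macrophage genes (Lyz2, Adgre1, Cd68 and others) summed to 33374, 32629 and 29439 CPM in macrophages and to 16443, 15478 and 4593 CPM in T cells. Macrophage RNA was therefore present in T cells, at a lower level in the kidney library. When T cells with at least 5 C1q UMIs were left out, the macrophage list still stood at 13774, 12623 and 4339.8 CPM. 917, 591 and 47 cells with at least 2 T-cell UMIs also held Csf1r and had been left out of both classes.

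RNA of other lineages differed between the libraries far more than these lists and was present in both classes. Haemoglobin and other erythroid genes summed to 389, 47588 and 1471 CPM in T cells, and immunoglobulin and plasma-cell genes to 6619.7, 37311 and 1341 CPM. Neutrophil genes summed to 6715, 5806 and 98.5 CPM and proximal-tubule genes to 79.3, 50.6 and 2081 CPM. Hepatocyte genes summed to 762, 49.1 and 8.11 CPM and cardiomyocyte genes to 31.2, 162 and 6.95 CPM. These 2 lists went against the labels, since the library labelled heart held the hepatocyte RNA and the library labelled liver the cardiomyocyte RNA. Alb (albumin), at 105 CPM (96.2 to 114) in T cells of the library labelled heart, was at 0 in those of the library labelled liver and of the kidney library. Nppa (the natriuretic peptide of the atria) was at 26.6 CPM (21.4 to 32.8) in T cells of the library labelled liver and at 0 in the other two. The library labelled heart and that labelled liver are therefore named by their labels throughout, and exchanging the labels would turn the sign of each ratio between them and leave its size.

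The study describes liver grafts as tolerated and heart grafts as rejected, and the first comparison set T cells of the library labelled liver beside those of the library labelled heart, whose labels the organ RNA goes against. T cells of the library labelled liver held more RNA of the secreted factors Ccl1, Xcl1 and Lta and of the naive and memory genes Lef1, Il7r, Tcf7 and Ccr7, while those of the library labelled heart held more Gzma, Ccl5 and Tox. 519 of 8363 genes counted (6.21%) were past 2-fold, 271 higher in the library labelled liver (3.24%) and 248 in that labelled heart (2.97%). 120 and 139 of them had an interval wholly past 2-fold. The median log2 ratio over all genes was -0.02. A gene was called borne by a class when its level there was at least 3 times that in the other class, and many genes named here are members of gene lists that neither class bore. 210 of the 8363 genes were borne by T cells in this sense, of which 9 were at least 2-fold higher in the library labelled liver and 16 in that labelled heart.

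Among secreted factors, Ccl1 (a ligand of CCR8) stood apart, at 12.7 CPM (9.80 to 16.2) in the library labelled heart, 92.7 CPM (82.7 to 104) in that labelled liver and 86.9 CPM (68.4 to 109) in the kidney library. The library labelled heart was thus low and the other two were alike, with a log2 ratio between the libraries labelled liver and heart of 2.77 (2.40 to 3.15). A Ccl1 UMI was present in 0.560% (0.375 to 0.803), 2.59% (2.09 to 3.15) and 3.27% (2.30 to 4.5) of T cells thinned to 500 UMIs, against 0.291%, 1.35% and 0.599% of macrophages. Its level in macrophages moved the same way, by a log2 ratio of 2.23 (1.26 to 3.25). Xcl1 (lymphotactin, which attracts XCR1 dendritic cells) was at 280.1 CPM (266 to 295) in the library labelled heart, 623 CPM (597 to 650.1) in that labelled liver and 649 CPM (596 to 705) in the kidney library, and its ratio of liver over heart was 1.15 (1.05 to 1.25), with 1.40 (1.09 to 1.72) in macrophages. Lta (lymphotoxin alpha) was at 4.37 CPM (2.74 to 6.62) in the library labelled heart, 16.3 CPM (12.3 to 21.2) in that labelled liver and 55.6 CPM (41.0 to 73.8) in the kidney library, and its ratio was 1.69 (1.05 to 2.32). In both genes the libraries took the order heart, liver, kidney, although for Xcl1 the libraries labelled liver and kidney lay within each other's counting error. Rgs16 (a regulator of G-protein signalling induced by T-cell activation) was at 104 CPM (93.6 to 116) in the library labelled liver and 37.0 CPM (31.9 to 42.7) in that labelled heart, a log2 ratio of 1.47 (1.22 to 1.73). In macrophages Rgs16 had a ratio of 1.91 (1.0 to 2.87), so that Ccl1, Xcl1 and Rgs16 were past 2-fold alike in both classes. Ifng (interferon gamma) was at 196 CPM (184 to 208) in the library labelled heart, 285 CPM (267 to 304) in that labelled liver and 301 CPM (266 to 340.3) in the kidney library, and its ratio of 0.54 (0.41 to 0.67) stayed under 2-fold.

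Of 10 genes of naive and memory T cells, 5 were at least 2-fold higher in the library labelled liver and none in that labelled heart, with a median log2 ratio of 1.07 against -0.02 over all genes. Lef1 (a transcription factor of naive T cells) was at 16.9 CPM (12.8 to 21.9) in the library labelled liver and 6.76 CPM (4.68 to 9.45) in that labelled heart, a ratio of 1.20 (0.63 to 1.78). Il7r (the receptor for IL-7, which keeps naive and memory cells alive) was at 20.4 CPM (15.9 to 25.9) in the library labelled liver and 5.77 CPM (3.86 to 8.28) in that labelled heart, a ratio of 1.66 (1.09 to 2.24). Tcf7, the partner of Lef1, had a ratio of 1.30 (0.83 to 1.78), and Ccr7, the receptor for homing to lymph nodes, 1.54 (1.06 to 2.02). All of these levels were low, and a Lef1 UMI was present in 0.309%, 0.853% and 0.273% of thinned T cells in the libraries labelled heart and liver and in the kidney library. In macrophages the shares were 0.232% and 0.205% for the libraries labelled heart and liver. A Tcf7 UMI was present in 0.463% and 1.32% of thinned T cells of these libraries. In macrophages its share rose as well, from 0.116% (2 cells) to 0.738% (18 cells).

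Cytotoxic genes did not differ in 1 direction. Of 18 counted, 2 were at least 2-fold higher in the library labelled liver (Gzmc and Xcl1) and 2 in that labelled heart (Gzma and Ccl5), and the median ratio was -0.03. Gzma (granzyme A; chromosome 13, 113093825 to 113100981, minus strand, GRCm38) was at 1038 CPM (1004 to 1073) in the library labelled liver and 3769 CPM (3716 to 3823) in that labelled heart, a log2 ratio of -1.86 (-1.91 to -1.81). Its UMIs were also abundant in macrophages, with a ratio there of -1.65 (-1.75 to -1.54), so that it belonged to the genes shifted alike in both classes. Ccl5, a chemokine of activated T cells, was at 4620.3 CPM (4548 to 4693) in the library labelled liver and 10775 CPM (10685 to 10866) in that labelled heart and had a ratio of -1.22 (-1.25 to -1.20). A Ccl5 UMI was present in 81.6% and 95.2% of thinned T cells of these libraries and in 81.5% and 86.2% of their macrophages. Gzmb (granzyme B) differed by -0.71 (-0.75 to -0.68) and Nkg7, a protein of cytotoxic granules, by -0.80 (-0.84 to -0.76), both under 2-fold. Prf1, the pore-forming perforin, was at 168 CPM (155 to 183) in the library labelled liver and 173 CPM (161 to 184) in that labelled heart and had overlapping intervals. The coreceptors gave log2 ratios of 0.15 (0.07 to 0.23) for Cd8a, -0.23 (-0.30 to -0.16) for Cd8b1 and 0.56 (0.11 to 1.01) for Cd4.

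Of 9 inhibitory receptors and regulators, Tox was the only one past 2-fold. Tox, a transcription factor of chronically stimulated T cells (chromosome 4, 6686353 to 6991557, minus strand), was at 61.8 CPM (55.1 to 69.1) in the library labelled heart, 20.7 CPM (16.2 to 26.2) in that labelled liver and 38.2 CPM (26.3 to 53.7) in the kidney library, a log2 ratio of -1.53 (-1.91 to -1.17) that placed the library labelled heart highest. Pdcd1, which encodes the receptor PD-1, was at 135 CPM (125 to 146) in the library labelled heart, 225 CPM (209 to 242) in that labelled liver and 284 CPM (249.5 to 322) in the kidney library, lowest in the first, and its ratio of 0.73 (0.58 to 0.88) was under 2-fold. A Pdcd1 UMI was present in 6.08% (5.44 to 6.76), 9.46% (8.53 to 10.5) and 12.9% (11 to 15.0) of thinned T cells, against 1.45%, 3.16% and 4.79% of macrophages. Without thinning the T-cell shares were 11.4%, 16.0% and 18.5%. Lag3 had a ratio of -0.71 (-0.88 to -0.54), Havcr2 of 0.49 (0.22 to 0.75), Ctla4 of -0.28 (-0.47 to -0.09) and Cd160 of -0.61 (-0.76 to -0.46). These receptors thus moved in both directions, with a median of -0.45. None of 5 counted genes of regulatory T cells was past 2-fold, and Foxp3 and Ikzf2, which hold few UMIs, were not counted. Il21, a cytokine of helper T cells, was at 4.44 CPM (2.49 to 7.32) in the library labelled liver and 12.7 CPM (9.80 to 16.2) in that labelled heart, a ratio of -1.33 (-2.06 to -0.63). Ngp and Ltf, granule proteins of developing neutrophils, were also among the genes borne by T cells and highest in the library labelled heart, with ratios of -3.20 (-3.77 to -2.67) and -2.00 (-2.84 to -1.11). Of 13 counted genes of the neutrophil list, 6 were at least 2-fold higher in the library labelled heart and 1 in that labelled liver, with a median of -0.96, and the part of neutrophil RNA in the ratios of Ngp and Ltf was not tested.

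**Figure D1:**
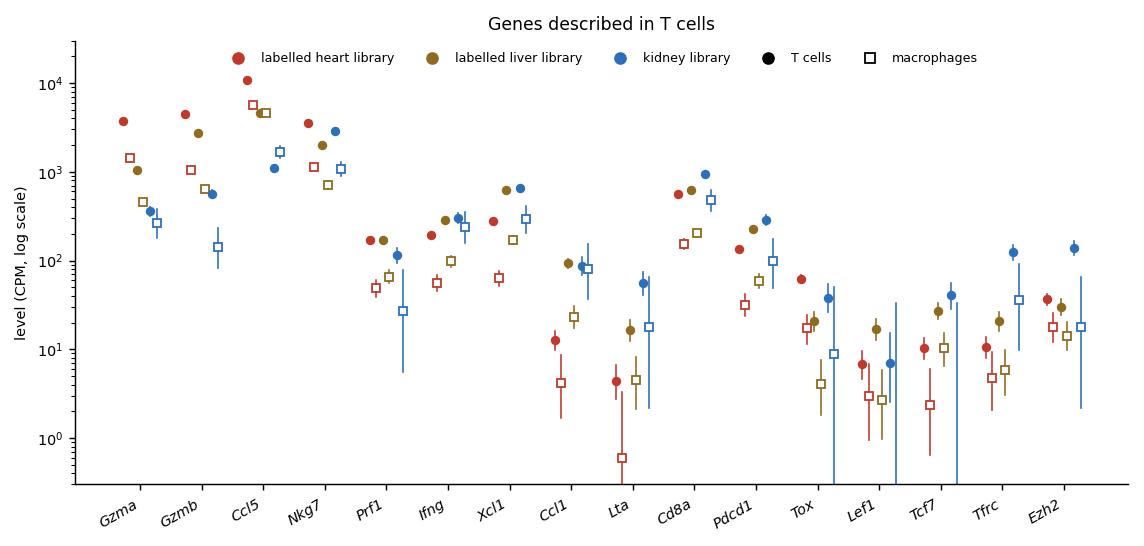
Level of selected genes in T cells and macrophages of the 3 TIL libraries (CPM, log axis). Each library and class has 1 point with its exact 95% Poisson interval, or the interval alone where no UMI was counted. In T cells, Ccl1, Xcl1 and Lta stand lowest and Gzma, Gzmb, Ccl5 and Tox highest in the library labelled heart. Tfrc and Ezh2 stand highest in T cells of the kidney library.

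In macrophages the same comparison separated genes of liver-resident macrophages from chemokines and interferon-induced genes. Spic, Vsig4, Fcna, Cd5l and Clec4f were higher in the library labelled heart, and Ccl8, Ccl12, Arg1, Cd72 and Gbp2 in that labelled liver. 451 of 5945 genes counted (7.59%) were past 2-fold, 259 higher in the library labelled liver (4.36%) and 192 in that labelled heart (3.23%), and 117 and 88 had an interval wholly past 2-fold. The median over all genes was -0.08. Only 25 genes were borne by macrophages under the rule of 3 times. 4 of the 25 were at least 2-fold higher in the library labelled liver and 7 in that labelled heart.

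Kupffer cells are the resident macrophages of liver sinusoids. Of 7 counted Kupffer-cell genes, 6 were at least 2-fold higher in the library labelled heart, with a median log2 ratio of -4.06. Spic and Fcna, which that list does not hold, moved with them. Spic (a transcription factor of macrophages that recycle iron; chromosome 10, 88674772 to 88685015, minus strand) was at 166 CPM (147 to 186) in the library labelled heart, 5.79 CPM (3.08 to 9.91) in that labelled liver and 0 CPM (at most 26.8) in the kidney library. The library labelled heart was far above the other two, with a ratio of -4.62 (-5.37 to -3.91). Vsig4, a complement receptor, was at 45.5 CPM (35.9 to 56.9) in the library labelled heart, 1.78 CPM (0.486 to 4.56) in that labelled liver and 0 CPM (at most 26.8) in the kidney library, a ratio of -4.06 (-5.02 to -3.01). Cd5l, a secreted protein of tissue macrophages, was at 229 CPM (207 to 253) in the library labelled heart, with a ratio of -7.32 (-7.85 to -6.04), and Clec4f, a lectin of Kupffer cells, was at least 33.6-fold higher there because it was at 0 in that labelled liver. Fcna, which encodes ficolin A, had a ratio of -4.15 (-5.00 to -2.92). Folr2, the remaining counted member of the list, differed by less, with a ratio of -0.07 (-0.78 to 0.65). A Spic UMI was present in 7.21% (6.03 to 8.53) and 0.287% (0.116 to 0.591) of thinned macrophages of the libraries labelled heart and liver and in 0 of 167 in the kidney library, which allows a share of up to 1.80% when 3 cells are taken as the limit, or 2.18% by the exact binomial limit. The same genes differed in T cells, where 6 of 6 counted members of the Kupffer-cell list were at least 2-fold higher in the library labelled heart, with a median of -3.64. There Spic had a ratio of -4.27 (-5.04 to -3.44), Vsig4 of -2.07 (-2.87 to -1.24) and Fcna of -1.86 (-2.69 to -0.99), so that they belong to the genes shifted alike in both classes. These genes moved with the hepatocyte list, which summed to 675 CPM in macrophages of the library labelled heart and to 118 CPM in those of the library labelled liver, and how far RNA outside cells made up either was not tested.

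Several CC chemokines were higher in the library labelled liver. Ccl8 was at 319 CPM (293 to 347) in the library labelled heart, 3273 CPM (3199 to 3349) in that labelled liver and 4009 CPM (3647 to 4398) in the kidney library. Its log2 ratio of liver over heart was 3.35 (3.23 to 3.48). It was present in 6.16% (5.07 to 7.4), 48.9% (46.9 to 50.9) and 33.5% (26.4 to 41.2) of thinned macrophages and in 4.61%, 40.8% and 7.18% of T cells, so that in the library labelled liver the share in T cells was close to that in macrophages. Its T-cell ratio was 3.07 (2.96 to 3.19). Ccl12, a ligand of CCR2, was at 195 CPM (175 to 217) in the library labelled heart, 791 CPM (754 to 828) in that labelled liver and 473 CPM (354 to 619) in the kidney library. Its ratio was 2.01 (1.84 to 2.19). Ccl7 had a ratio of 2.51 (2.29 to 2.73) and Ccl2 of 1.30 (1.11 to 1.49). Of 9 CC chemokines counted, these 4 passed 2-fold upward and Ccl24 passed it downward. The median of the list was 0.34.

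Of 18 counted genes that interferon gamma induces, 6 were at least 2-fold higher in the library labelled liver and none in that labelled heart, with a median of 0.95. Gbp2, a guanylate-binding protein, was at 1044 CPM (1002 to 1087) in the library labelled liver and 431 CPM (400.4 to 464) in that labelled heart and had a ratio of 1.27 (1.15 to 1.40). Nos2, the inducible nitric oxide synthase, was at 75.3 CPM (64.4 to 87.6) in the library labelled liver and 11.8 CPM (7.23 to 18.3) in that labelled heart, a ratio of 2.57 (1.94 to 3.25). Socs1, which restrains cytokine signalling, differed by 1.45 (1.17 to 1.74). In T cells Gbp2, Nos2 and Socs1 had ratios of 1.10 (1.01 to 1.20), 2.02 (1.54 to 2.51) and 1.60 (1.36 to 1.83), past 2-fold as well. Cxcl9 and Cxcl10 differed by 0.56 (0.46 to 0.66) and 0.68 (0.52 to 0.84), under 2-fold. None of 7 MHC class II genes passed 2-fold, and their median was 0.54. Of 17 genes that type I interferon induces, 1 passed it.

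Arg1 (arginase 1, which breaks down arginine) was at 379.7 CPM (351 to 410.3) in the library labelled heart, 1092 CPM (1049 to 1136) in that labelled liver and 26.8 CPM (5.52 to 78.3) in the kidney library, a ratio of liver over heart of 1.52 (1.40 to 1.65). A UMI of Arg1 was present in 8.83%, 22.9% and 0.599% of thinned macrophages, the last being 1 of 167 cells. Cd72, a receptor of B cells and macrophages, was at 359 CPM (334 to 384) in the library labelled liver and 129 CPM (112 to 147) in that labelled heart, a ratio of 1.47 (1.25 to 1.69). Chil3, a secreted protein of monocytes and alternatively activated macrophages, went the other way with a ratio of -2.38 (-2.46 to -2.29), as did Cd300e with -2.45 (-3.03 to -1.90) and the B-cell chemokine Cxcl13 with -2.40 (-3.20 to -1.64). Of 10 genes of alternative activation and repair, 5 were at least 2-fold higher in the library labelled liver and 1 in that labelled heart. Of 10 counted genes of hypoxia and heme, 4 were at least 2-fold higher in the library labelled liver and 3 in that labelled heart. Among genes that hypoxia induces, Bnip3 was at 1.93 (1.62 to 2.25) and Ndrg1 at 2.45 (1.79 to 3.17), while the iron exporter Slc40a1 was at -2.61 (-3.15 to -2.09). In T cells Chil3, Cd300e and Cxcl13 had ratios of -2.18 (-2.25 to -2.10), -2.15 (-2.86 to -1.47) and -2.24 (-3.06 to -1.27), close to those in macrophages, whereas Arg1 and Cd72 stayed under 2-fold at 0.85 (0.73 to 0.97) and 0.67 (0.46 to 0.88).

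**Figure D2:**
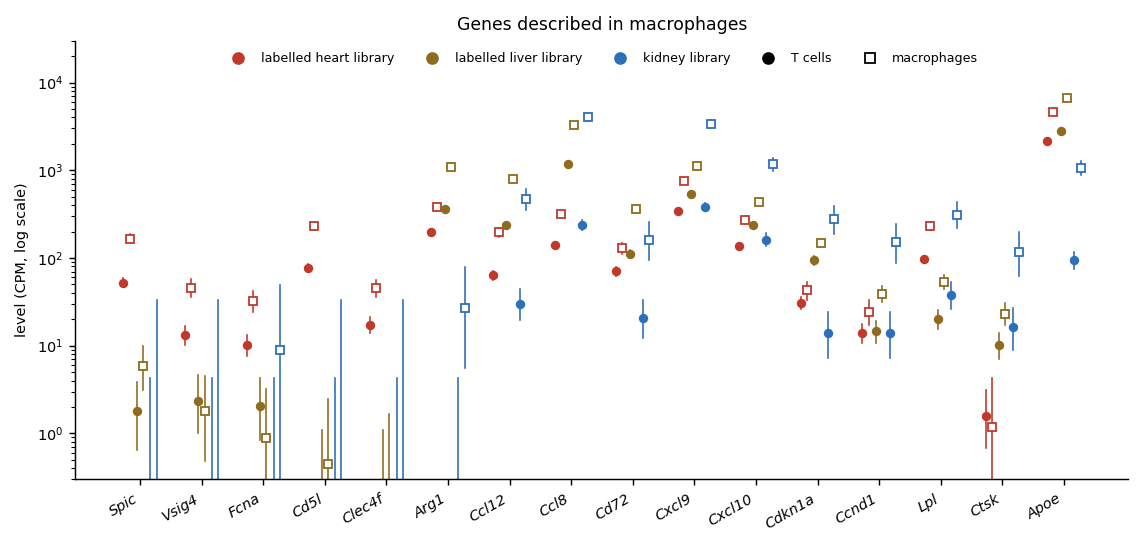
Level of further genes in T cells and macrophages of the 3 TIL libraries (CPM, log axis). Each library and class has 1 point with its exact 95% Poisson interval, or the interval alone where no UMI was counted. In macrophages, Kupffer-cell genes stand highest in the library labelled heart and Ccl12 and Arg1 in that labelled liver. Cxcl9 and Cxcl10 stand highest in macrophages of the kidney library, where intervals are widest.

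Many of the differences between the libraries labelled liver and heart appeared in both classes. Of 5929 genes counted in both, 242 (4.08%) were past 2-fold in the same direction, 146 higher in the library labelled liver (2.46%) and 96 in that labelled heart (1.62%). They made up 46.6% of the 519 genes past 2-fold in T cells and 53.7% of the 451 in macrophages. Of the 519, however, 205 were not counted in macrophages, and of the 314 that were, 77.1% were alike. Over the 5929 genes the T-cell and macrophage ratios had a Pearson correlation of 0.874 and a Spearman correlation of 0.686, given as a description because each library contributes to both axes. Genes of this kind were set apart as candidates for RNA outside cells, and their origin was not tested. In cells outside both gates, 125 of 142 counted genes of the first set and 85 of 92 of the second were again past 2-fold. The adult beta-globin gene Hbb-bs had the highest ratio in T cells, at 26811 CPM (26637 to 26986) in the library labelled liver and 163 CPM (152 to 174) in that labelled heart in T cells, a ratio of 7.36 (7.26 to 7.46) there and 7.99 (7.77 to 8.22) in macrophages. An Hbb-bs UMI was present in 5.42%, 98.5% and 24.9% of thinned T cells. Mgp, a matrix protein of stromal cells, had ratios of 4.85 (4.45 to 5.27) and 4.72 (3.98 to 5.52) in T cells and macrophages. Saa2, an acute-phase protein of hepatocytes, had -7.28 (-7.66 to -6.25) in T cells, and Saa2 was at 0 in macrophages of the library labelled liver, at least 120.3-fold below the library labelled heart. Alb was at least 118-fold lower in T cells and at least 80.1-fold lower in macrophages of the library labelled liver. The 10 leading genes in each direction were of erythroid, cardiac and stromal cells on 1 side (among them Alas2, Tnnt2, Nppa, Ankrd1 and the globins) and of hepatocytes, with the macrophage gene Cd5l, on the other (among them Hpx, Apoa1, Mat1a, Fgb, Fabp1 and Saa1).

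**Figure D3:**
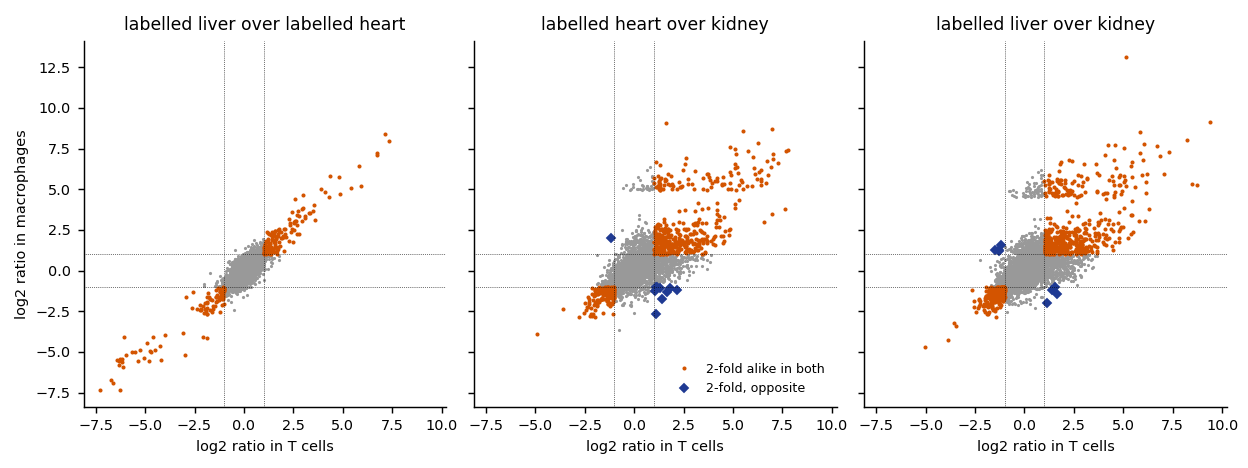
Log2 ratio of each counted gene in T cells (horizontal axis) against that in macrophages (vertical axis), 1 panel per pair of TIL libraries, with lines at a 2-fold difference. Genes past 2-fold alike in both classes number 242 in the comparison of the libraries labelled liver and heart, 574 for heart and kidney and 739 for liver and kidney.

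The kidney library differed from both others far more. In T cells 2043 of 7304 genes (28.0%) were past 2-fold against the library labelled heart, with 18.4% lower and 9.53% higher in kidney. Against that labelled liver there were 1788 of 6478 (27.6%), with 17.3% lower and 10.3% higher in kidney. In macrophages 1048 of 3873 (27.1%) were past 2-fold against the library labelled heart, with 18.8% lower and 8.24% higher, and 1377 of 4506 (30.6%) against that labelled liver, with 19.6% lower and 11% higher. The macrophage interval was wholly past 2-fold for only 98 and 69 genes in the first comparison and 89 and 93 in the second. The kidney library enters both comparisons, so that they are not independent, and its macrophages held few UMIs. For 130 and 180 of the macrophage genes the kidney library was at 0. With those zeros set to the level that a count of 0 allows, 24.8% and 27.3% were past 2-fold. The medians over all genes were 0.12 and 0.02 in macrophages. In T cells the kidney library was at 0 for 113 and 37 of the genes lower in it. The other library was at 0 for 3 and 5 of those higher in kidney. Because the kidney library was the shallower of each pair, genes met the minimum of UMIs per gene more easily through the other library. That rule favours genes lower in kidney. The shares lower and higher therefore cannot show in which direction more genes differed.

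T cells of the kidney library held less Gzmb, Ccl5 and Ccl4, less of nearly all immediate early and type I interferon genes, and more Tfrc, Lta, Dapl1 and Ezh2 than the other two. Of 17 cytotoxic genes counted against the library labelled heart, 9 were at least 2-fold lower in the kidney library and 1 higher, beside 18.4% and 9.53% of all genes. The median log2 ratio (heart over kidney) was 1.14 against 0.07 over all genes. Against the library labelled liver, 10 of 18 were lower in the kidney library, beside 17.3% of all genes, with a median of 1.15 against 0.03. Gzmb (chromosome 14, 56258838 to 56262260, minus strand) was at 4489 CPM (4431 to 4548) in the library labelled heart, 2738 CPM (2683 to 2795) in that labelled liver and 569 CPM (519.8 to 622) in the kidney library, and its log2 ratios over kidney were 2.98 (2.85 to 3.11) and 2.26 (2.13 to 2.40). The intervals of the 3 libraries did not overlap. A Gzmb UMI was present in 75.3% (74.1 to 76.4), 53.1% (51.4 to 54.7) and 19.1% (16.8 to 21.5) of thinned T cells and in 37.5%, 26.7% and 4.79% of macrophages, and without thinning in 86.4%, 65.2% and 24.8% of T cells. In macrophages its ratios over kidney were 2.87 (2.17 to 3.67) and 2.16 (1.46 to 2.96), and their intervals overlapped those of T cells. Among macrophages with at least 1000 UMIs the Gzmb ratio of liver over kidney was -0.51. Gzma was at 360.4 CPM (321 to 403) in the kidney library, with ratios over kidney of 3.38 (3.22 to 3.55) for heart and 1.52 (1.36 to 1.70) for liver. Ccl5 was at 1096 CPM (1028 to 1169) there, with ratios of 3.30 (3.20 to 3.39) and 2.07 (1.98 to 2.17). In the kidney library a Ccl5 UMI was present in 33.9% (31.1 to 36.8) of thinned T cells and in 46.1% (38.4 to 54.0) of macrophages. Nkg7, at 2878 CPM (2766 to 2993), lay between the other two, Ctsw, a protease of killer cells, was highest in kidney at 578 CPM (529 to 631), and Cd8a was at 569 CPM (549 to 590.4) in the library labelled heart, 631 CPM (604 to 658) in that labelled liver and 950.3 CPM (886 to 1018) in the kidney library. The low granzyme level therefore did not extend to each gene of CD8 or cytotoxic cells. The NK-cell receptor gene Klre1 was also lower in kidney, with ratios over kidney of 2.77 (1.80 to 3.88) and 1.89 (0.90 to 3.02). 6 of 6 counted genes of the NK-cell list were at least 2-fold higher in the library labelled heart, beside 18.4% of all genes. The minimum of UMIs per gene favours genes high in that deeper library, and Klra8, at 0 in kidney, met it there alone. The count therefore cannot show how the whole list differed. The part of NK cells in the granzyme levels was not tested.

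Tfrc, Ezh2 and Dapl1 were among the genes higher in T cells of the kidney library. Tfrc (the transferrin receptor, which takes up iron and rises in dividing cells) was at 10.5 CPM (7.89 to 13.8) in the library labelled heart, 20.7 CPM (16.2 to 26.2) in that labelled liver and 124 CPM (102 to 149.9) in the kidney library, with log2 ratios of -3.44 (-3.90 to -2.98) and -2.52 (-2.96 to -2.09). Ezh2, the histone methyltransferase of the Polycomb complex, was at 36.8 CPM in the library labelled heart, 30.2 CPM in that labelled liver and 138 CPM in the kidney library, with ratios of -1.88 (-2.21 to -1.54) and -2.15 (-2.54 to -1.77). Dapl1, a gene of naive and memory CD8 T cells, was at 16.3 CPM (13 to 20.2) in the library labelled heart, 32.6 CPM (26.8 to 39.3) in that labelled liver and 323 CPM (287 to 364) in the kidney library. The kidney library was far above the other two in these 3 genes. The naive and memory list held genes of both directions. Of 7 counted, 2 were at least 2-fold lower and 3 higher in kidney than in the library labelled heart, beside 18.4% and 9.53% of all genes. The median log2 ratio was 0.32. Against that labelled liver, 4 of 9 were lower and 1 higher in kidney, with a median of 0.67. The shares of all genes were 17.3% and 10.3%, so that the 1 higher was near its share. Lta had ratios over kidney of -3.40 (-4.06 to -2.73) and -1.71 (-2.27 to -1.15). Of 20 cell-cycle genes, 4 were at least 2-fold higher in the kidney library than in that labelled heart and 7 than in that labelled liver, and none was lower, with medians of -0.60 and -0.74. The shares of all genes higher in kidney were 9.53% and 10.3%. The list moved likewise in macrophages, with 3 of 18 and 10 of 18 at least 2-fold higher in kidney and medians of -0.62 and -1.04. There 8.24% and 11% of all genes were higher in kidney. Mki67, a marker of dividing cells, was at 20.5 CPM (16.7 to 24.8) in the library labelled heart, 26.6 CPM (21.4 to 32.8) in that labelled liver and 59.1 CPM (44.0 to 77.7) in the kidney library. Itgb1, the integrin beta-1 chain, was at 81.1 CPM in the library labelled heart, 133 CPM in that labelled liver and 255 CPM in the kidney library.

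Immediate early genes, which are transcribed within minutes of a stimulus and also during the handling of cells, were mostly lowest in kidney, in both classes. In T cells 12 of 14 were at least 2-fold higher in the library labelled heart than in kidney and 11 of 14 in that labelled liver. The shares of all genes were 18.4% and 17.3%, and the median log2 ratios of the list were 2.61 and 3.33. Fos was at 239 CPM (226 to 253) in the library labelled heart, 570.2 CPM (545 to 596) in that labelled liver and 9.27 CPM (4.0 to 18.3) in the kidney library, and a Fos UMI was present in 11.5%, 24.6% and 0.636% of thinned T cells. Zfp36, which promotes decay of cytokine mRNA, was at 483 CPM (464 to 503) in the library labelled heart, 674 CPM (646 to 702) in that labelled liver and 19.7 CPM (11.5 to 31.5) in the kidney library, with ratios over kidney of 4.55 (3.89 to 5.28) and 5.03 (4.37 to 5.76). In macrophages 9 of 13 and 11 of 14 were at least 2-fold higher than in kidney, beside 18.8% and 19.6% of all genes. The medians were 1.69 and 2.86, or 1.26 and 1.35 with zeros set to the level that a count of 0 allows. Nr4a1 and Ppp1r15a were at 0 in kidney macrophages, as was Egr1 in the second comparison. They met the minimum of UMIs per gene through the other library alone, and that rule set their direction. Ppp1r15a was at least 1.85-fold higher in the library labelled heart, which does not reach 2-fold. The library labelled liver was also above that labelled heart, where 5 of 14 passed 2-fold in T cells and 6 of 14 in macrophages. Dusp1, a phosphatase of stress kinases, was at 218, 528 and 30.1 CPM in T cells of the libraries labelled heart and liver and of the kidney library. Junb, a subunit of AP-1, was at 561, 529 and 66.1 CPM in the same order. Jund, by contrast, was within 2-fold in T cells of all 3 libraries, at 31.6, 53.3 and 40.6 CPM.

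Inflammatory cytokines followed, with 10 of 11 counted in T cells at least 2-fold higher in the library labelled heart than in kidney and 11 of 12 in that labelled liver. The shares of all genes were 18.4% and 17.3%. Il1b (interleukin 1 beta, a product of myeloid cells) was at 598 CPM in the library labelled heart, 1222 CPM in that labelled liver and 16.2 CPM in the kidney library in T cells. In macrophages Il1b was at 668, 1228 and 44.6 CPM in the same order. Cxcl2, a chemokine for neutrophils, was at 419.9, 1419 and 2.32 CPM in T cells and at 415, 1412 and 35.7 CPM in macrophages. The value in kidney macrophages came from 1 of 167 cells. Neither Il1b nor Cxcl2 is a T-cell gene, and both stood about as high in T cells as in macrophages of the libraries labelled heart and liver. The neutrophil list, at 6715, 5806 and 98.5 CPM in T cells, was likewise low in kidney. Between the libraries labelled liver and heart its 13 counted members had T-cell log2 ratios from -6.05 to 1.18, of which 4 were above 0. The part of neutrophil RNA in Il1b and Cxcl2 was not tested.

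Of genes that type I interferon induces, most passed 2-fold in T cells and a smaller part in macrophages. In T cells 14 of 17 were at least 2-fold higher in the library labelled heart than in kidney and 11 of 15 in that labelled liver, with medians of 1.38 and 1.52. The shares of all genes were 18.4% and 17.3%. In macrophages the counts were 1 of 13 and 4 of 16, beside 18.8% and 19.6% of all genes, so that the second was near its share. There 1 gene was lower than in kidney in each comparison, and the medians were 0.08 and 0.11. Rtp4, an antiviral protein, was at 198 CPM (186 to 211) in the library labelled heart, 195 CPM (181 to 211) in that labelled liver and 44.0 CPM (31.2 to 60.4) in the kidney library in T cells. Isg15, a ubiquitin-like protein, was at 218, 240.4 and 64.9 CPM in T cells and at 358, 325 and 339 CPM in macrophages of the 3 libraries in that order. The 3 macrophage levels of Isg15 lay close together, while T cells of the kidney library held less than the others. When T cells with at least 5 C1q UMIs were left out, 13 of 17 and 12 of 14 genes were past 2-fold. The macrophage list, whose level in T cells was lowest in kidney, moved with this result, and its part was not tested.

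Kidney macrophages stood apart by the interferon-induced chemokines. Cxcl9 (chromosome 5, 92321347 to 92328079, minus strand) was at 750.0 CPM (709 to 792) in the library labelled heart, 1107 CPM (1064 to 1151) in that labelled liver and 3411 CPM (3077 to 3771) in the kidney library, and its log2 ratios over kidney were -2.18 (-2.35 to -2.02) and -1.62 (-1.78 to -1.46). Cxcl10 (chromosome 5, 92346638 to 92348889, minus strand) was at 274 CPM (250.03 to 301) in the library labelled heart, 439 CPM (412 to 467) in that labelled liver and 1169.7 CPM (978 to 1388) in the kidney library, with ratios of -2.09 (-2.37 to -1.80) and -1.41 (-1.67 to -1.14). In both genes the 3 libraries took the order heart, liver, kidney without overlap of their intervals. A Cxcl9 UMI was present in 26.6% (24.5 to 28.8), 36.9% (35.0 to 38.8) and 67.1% (59.4 to 74.1) of thinned macrophages and in 15.1%, 22.1% and 14.7% of T cells, and in T cells the Cxcl9 ratio of heart over kidney was -0.16 (-0.33 to 0.02). A Cxcl10 UMI was present in 11.6% (10.1 to 13.2), 17.9% (16.4 to 19.5) and 37.1% (29.8 to 44.9) of macrophages. Both genes lie on chromosome 5. Ccl8 (chromosome 11, 82115185 to 82116799, plus strand) was at 4009 CPM (3647 to 4398) in kidney, a ratio of -3.65 (-3.83 to -3.46) for heart over kidney and of -0.29 (-0.43 to -0.15) for liver over kidney, so that the library labelled heart was low in it and the other two high.

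The promoters of these 3 chemokine genes are shown because they moved together between macrophages of the library labelled heart and of the kidney library. The sequences are the 250 bases before the start of each gene, from RefSeq on GRCm38.p6, 5′ to 3′ on the strand of the gene. Capitals mark matches to GAAA followed after any 2 bases by another GAAA, a core of the interferon-stimulated response element, or to the NF-kB motif, on either strand.
Cxcl9 (chr5:92328080-92328329, minus strand): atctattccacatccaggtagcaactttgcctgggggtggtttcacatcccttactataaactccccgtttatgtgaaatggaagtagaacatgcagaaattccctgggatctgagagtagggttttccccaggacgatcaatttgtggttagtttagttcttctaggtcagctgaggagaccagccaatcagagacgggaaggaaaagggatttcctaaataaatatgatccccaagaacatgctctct
Cxcl10 (chr5:92348890-92349139, minus strand): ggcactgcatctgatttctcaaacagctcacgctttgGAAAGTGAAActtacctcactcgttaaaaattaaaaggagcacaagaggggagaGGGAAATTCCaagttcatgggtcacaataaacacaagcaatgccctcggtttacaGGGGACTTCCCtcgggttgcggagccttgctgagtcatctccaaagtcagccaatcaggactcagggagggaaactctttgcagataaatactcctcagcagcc
Ccl8 (chr11:82114935-82115184, plus strand): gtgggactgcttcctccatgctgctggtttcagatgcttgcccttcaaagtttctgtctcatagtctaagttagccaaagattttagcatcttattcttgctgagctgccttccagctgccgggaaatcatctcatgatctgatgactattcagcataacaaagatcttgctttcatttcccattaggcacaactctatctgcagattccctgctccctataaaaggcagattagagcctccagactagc
In this window Cxcl10 held 1 match to the interferon motif and 3 to the NF-kB motif, of which 2 overlapped, and Cxcl9 and Ccl8 held no match to either. Among 32851 promoters of the same length, 2.98% held the interferon motif and 7.25% the NF-kB motif on either strand. A match describes letters only.

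Some other macrophage genes were also high in kidney. Of 6 MHC class II genes counted against the library labelled heart, 3 were at least 2-fold higher in kidney, beside 8.24% of all genes, with a median (heart over kidney) of -0.89. Against the library labelled liver none of 7 was past 2-fold and the median was -0.35. H2-Eb1, an MHC class II beta chain, was at 3556 CPM (3467 to 3647) in the library labelled heart, 5688 CPM (5589.9 to 5788) in that labelled liver and 9322 CPM (8765 to 9905) in the kidney library. Of 16 genes induced by interferon gamma, 5 were at least 2-fold higher in kidney and 1 lower against the library labelled heart, beside 8.24% and 18.8% of all genes, with a median of -0.62. Of 18 counted against that labelled liver, 3 were at least 2-fold higher in kidney and 5 lower, beside 11% and 19.6% of all genes, with a median of 0.43. Irf1, at 271 CPM in the library labelled heart, 439 CPM in that labelled liver and 116 CPM in the kidney library, was among the lower ones although it is induced by interferon gamma as Cxcl9 is. Cdkn1a, an inhibitor of the cell cycle, was at 42.6 CPM (33.3 to 53.6) in the library labelled heart, 147 CPM (132 to 164) in that labelled liver and 277 CPM (188 to 393) in the kidney library, with ratios over kidney of -2.67 (-3.28 to -2.03) and -0.91 (-1.44 to -0.33). Ccnd1 (cyclin D1, which drives entry into the cycle) was at 24.2 CPM (17.4 to 32.9) in the library labelled heart, 39.2 CPM (31.5 to 48.3) in that labelled liver and 152 CPM (88.4 to 243) in the kidney library. Lpl (lipoprotein lipase) was at 232 CPM (209 to 256) in the library labelled heart, 53.5 CPM (44.3 to 64.0) in that labelled liver and 313 CPM (218 to 435) in the kidney library, so that the library labelled liver was low, and Ctsk (the collagen-degrading cathepsin K) was at 1.18 CPM in the library labelled heart, 23.2 CPM in that labelled liver and 116 CPM in the kidney library.

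Apoe, Hmox1 and Arg1 were low in macrophages of the kidney library. Apoe (apolipoprotein E) was at 4658 CPM (4556 to 4762) in the library labelled heart, 6690.5 CPM (6584 to 6798) in that labelled liver and 1054 CPM (872 to 1262) in the kidney library, with ratios over kidney of 2.14 (1.88 to 2.42) and 2.67 (2.40 to 2.94). Hmox1 (heme oxygenase 1) was at 767 CPM (726 to 810.0) in the library labelled heart, 1449.8 CPM (1400.4 to 1500.5) in that labelled liver and 250.01 CPM (166 to 361) in the kidney library, with ratios of 1.61 (1.08 to 2.21) and 2.53 (2.0 to 3.12). Arg1 rested on 3 UMIs of 1 cell in kidney macrophages, and its ratios over kidney were 3.78 (2.26 to 5.87) and 5.30 (3.78 to 7.39). These intervals take the 3 UMIs as separate counts and are therefore too narrow. In T cells the ratios over kidney were 4.51 (4.2 to 4.84) and 4.88 (4.57 to 5.21) for Apoe and 3.13 (2.63 to 3.69) and 4.09 (3.59 to 4.64) for Hmox1, larger than in macrophages. Of the genes of lipid handling, 4 of 11 were at least 2-fold lower and none higher in kidney macrophages against the library labelled heart. The shares of all genes there were 18.8% and 8.24%. Against that labelled liver 6 of 13 were lower and 1 higher, beside 19.6% and 11% of all genes. Plac8, a gene of monocytes, was at 3038, 2525 and 1295 CPM in the libraries labelled heart and liver and the kidney library, while Ly6c2, a surface marker of inflammatory monocytes, was at 847, 897 and 1919.8 CPM. The list of 10 monocyte genes therefore held members of both directions, with 5 of 8 lower and 2 higher in kidney against the library labelled heart. The 6 counted genes of the Kupffer-cell list were all at 0 in kidney macrophages. Their median ratio of heart over kidney was 1.56 with those zeros set to the level that a count of 0 allows. They met the minimum of UMIs per gene through the library labelled heart alone. That rule set the direction of the median, which therefore cannot show how the list differed. Spic was at least 6.18-fold higher in the library labelled heart than in kidney, where it was at 0.

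Genes past 2-fold alike in both classes numbered 574 of 3869 (14.8%) between the library labelled heart and kidney, 430 of them higher in heart (11.1%) and 144 in kidney (3.72%). Between the library labelled liver and kidney there were 739 of 4435 (16.7%), 485 of them higher in liver (10.9%) and 254 in kidney (5.73%). The minimum of UMIs per gene favours genes lower in kidney here as well. These counts therefore cannot show in which direction more genes were alike. Genes alike in both classes were led by neutrophil genes (G0s2, Il1r2 and S100a9). Hepatocyte genes also led for the library labelled heart and immunoglobulin genes (Jchain, Ighg2c and Mzb1) for that labelled liver. G0s2, Il1r2, Ighg2c and Mzb1 were at 0 in kidney macrophages, as were 7 of 8 counted hepatocyte genes. The macrophage median of these 8 for heart over kidney was 5.74, or 1.25 with zeros set to the level that a count of 0 allows. The 7 at 0 met the minimum of UMIs per gene through the library labelled heart alone, and that rule set their direction. S100a9 (a subunit of the neutrophil protein calprotectin) was at 1417 CPM (1384 to 1450.2) in the library labelled heart, 1849 CPM (1804 to 1896) in that labelled liver and 12.7 CPM (6.36 to 22.8) in the kidney library in T cells. Jchain (which joins IgA and IgM subunits in plasma cells) was at 465 CPM in the library labelled heart, 2717 CPM in that labelled liver and 41.7 CPM in the kidney library in T cells. On the side of the kidney library, Gpx3 (the glutathione peroxidase that proximal tubules secrete) led, at 45.1 CPM (39.4 to 51.4) in the library labelled heart, 41.7 CPM (35.1 to 49.2) in that labelled liver and 1398 CPM (1319.9 to 1479) in the kidney library.

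Son, Rbm25 and Eif5b were also higher in the kidney library in both classes. Son (a protein of nuclear speckles) was at 176 CPM (164 to 188) in the library labelled heart, 221 CPM (205 to 237) in that labelled liver and 939.9 CPM (876 to 1007) in the kidney library in T cells. In macrophages Son was at 169.7, 178 and 813 CPM in the same order. Rbm25 (a splicing regulator) was at 50.3, 64.5 and 352 CPM in T cells, and Eif5b (a translation initiation factor) at 65.2, 73.7 and 381 CPM. Genes named as ribosomal proteins took 13.6%, 12.3% and 23.4% of the UMIs of T cells and 11.3%, 8.85% and 15.0% of those of macrophages. Of single genes, Rps6, Rpl15 and Eef1a1 were higher in kidney by ratios of liver over kidney of -3.87 (-4.21 to -3.54), -3.57 (-3.80 to -3.34) and -3.47 (-3.66 to -3.27) in T cells, and these are uncertain because multi-aligned reads were discarded and near-identical copies of the 3 genes exist. Heat-shock genes followed, with 6 of 10 at least 2-fold higher in kidney than in the library labelled heart and 1 lower, beside 9.53% and 18.4% of all genes in T cells. Hsp90aa1, an HSP90 chaperone, was at 41.9, 87.3 and 525 CPM in T cells, while Hspa1a, an HSP70 chaperone induced by heat, was at 149, 132 and 41.7 CPM. The kidney library was shallower per cell, and the direction was the same at equal depth. After thinning, a Son UMI was present in 7.87%, 10.4% and 38.6% of T cells and in 7.90%, 7.38% and 38.3% of macrophages, and an Eif5b UMI in 2.99%, 3.25% and 16.6% of T cells.

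Ratios of T cells were set beside those from the blood libraries of recipients of the same organs, as the labels give them, which share no library with the TILs. Over 3056 genes counted in both, the ratios of heart over kidney in TIL and in blood had a Pearson correlation of 0.756, and over 2274 genes those of liver over kidney of 0.650, as descriptions only. Of 536 genes at least 2-fold higher in T cells of the library labelled heart than of the kidney library, 332 (61.9%) were also higher in heart blood than in kidney blood, against 16.0% of all genes. Of 300 genes higher in kidney TIL, 239 (79.7%) were higher in kidney blood, against 21.6% of all. For liver and kidney, 161 of 289 (55.7%) and 124 of 309 (40.1%) behaved so, against 9.41% and 10.5%. Between the libraries labelled liver and heart the correlation over 2603 genes was 0.233. The Spearman correlations were 0.725 for heart over kidney, 0.664 for liver over kidney and 0.066 for liver over heart. Of the 2043 T-cell genes past 2-fold between the library labelled heart and kidney, 836 were counted in blood, and 571 of these (68.3%) were past 2-fold the same way there. If the labels heart and liver of the TILs were exchanged, each would meet the other blood. The correlations would then be 0.617 over 2275 genes for the library labelled heart over kidney, 0.717 over 3038 genes for that labelled liver over kidney and -0.233 for liver over heart. Ratios of heart blood over kidney blood were thus nearer to those of both TIL libraries, although the correlations rest on different sets of genes. Heart blood held 743 T cells with 776567 UMIs and liver blood 316 with 316958, and the part of this depth was not tested. Son was at 193 CPM (163 to 227), 347 CPM (285 to 418) and 704 CPM (632 to 781) in T cells of heart, liver and kidney blood, and Tfrc at 2.58 CPM (0.312 to 9.30), 22.1 CPM (8.88 to 45.5) and 60.2 CPM (40.6 to 85.9), both highest in kidney as in the grafts. Gzma did not follow, at 2476 CPM (2367 to 2589), 2344 CPM (2179 to 2519) and 2356 CPM (2223 to 2495), since kidney blood was as high as the others. Gzmb was at 2273 CPM (2168 to 2381), 1704 CPM (1563 to 1854) and 1255 CPM (1159 to 1358), with kidney lowest. Fos was at 41.2 CPM (28.2 to 58.2), 177 CPM (133 to 229) and 90.2 CPM (65.8 to 121). In macrophages the 3 Pearson correlations were 0.311 for heart over kidney, 0.186 for liver over kidney and 0.140 for liver over heart. The Spearman correlations there were 0.351, 0.285 and 0.003 in the same order. 166 of 386 macrophage genes counted in blood (43.0%) moved the same way for heart over kidney.

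**Figure D4:**
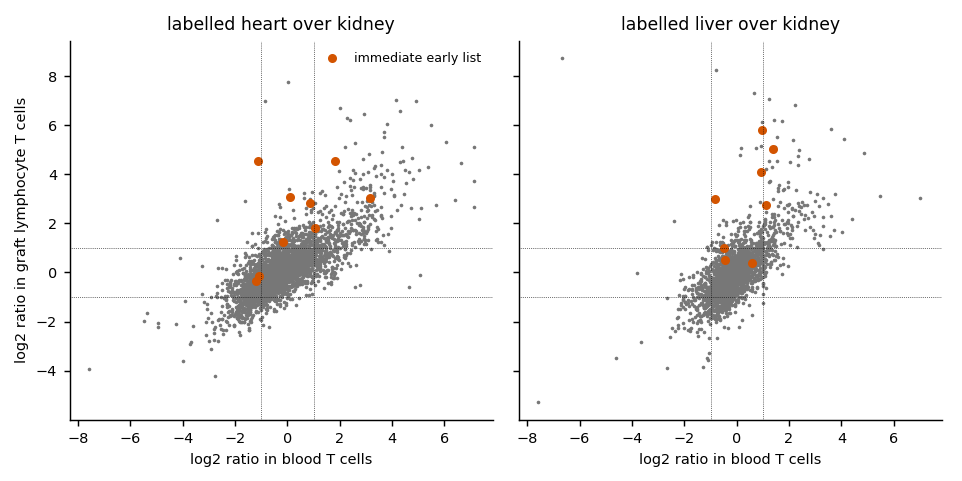
Log2 ratio of each gene in T cells of the blood libraries (horizontal axis) against that in T cells of the TIL libraries (vertical axis). There is 1 panel for heart over kidney (Pearson 0.756, 3056 genes) and 1 for liver over kidney (0.650, 2274 genes). Lines stand at a 2-fold difference, and genes of the immediate early list are marked.

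The library of the solid liver graft, prepared apart from the TILs, was set beside the TILs as well. T cells of the library labelled heart had a Pearson correlation of 0.962 with those of the solid liver graft and 8.19% of genes past 2-fold, and T cells of the library labelled liver 0.927 and 11.3%. In macrophages the values were 0.952 and 9.65% against 0.904 and 12.4%. By the median absolute log2 difference from the solid liver graft the libraries labelled heart and liver were nearly equal, at 0.348 and 0.347 in T cells and 0.376 and 0.368 in macrophages. Spic was at 116 CPM (104 to 128) in macrophages of the solid liver graft, nearer to the library labelled heart than to that labelled liver, and Ccl8 was at 169 CPM (155 to 184), likewise nearer to the library labelled heart. Gzma was at 3085 CPM (3051 to 3119.8) in its T cells. For T cells of the kidney TILs the measures disagreed as well. They had a Pearson correlation of 0.886 with the solid liver graft and 0.882 with the solid kidney graft, but Spearman correlations of 0.874 and 0.886, and 26.1% and 32.6% of genes past 2-fold. Kidney TIL macrophages correlated at 0.768 with the solid liver graft and 0.693 with the solid kidney graft. The solid kidney library held 353 T cells with 223119 UMIs and 77 macrophages, against 5411 T cells with 9968282 UMIs and 1653 macrophages in the solid liver library, and the part of this depth was not tested. With heart and liver blood, T cells correlated at 0.850 and 0.817 for the library labelled heart and at 0.846 and 0.832 for that labelled liver. In macrophages the order was the other way, at 0.767 and 0.775 and at 0.776 and 0.806. For T cells of the library labelled liver the share past 2-fold was 32.3% with heart blood and 31.4% with liver blood. All of these are values of single libraries, and whether the 2 labels were exchanged was not tested.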

How the data were processed

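Microwell-seq libraries of the 3 graft lymphocyte fractions were analysed, with the 5 other libraries of the series as reference. The deposited tables are unnormalised UMI counts of 10000 barcodes per library. Barcodes and UMIs were read with the Drop-seq core tools, reads were aligned with STAR to GRCm38, multi-aligned reads were removed and UMIs of a gene that differed at a single base were merged. The GENCODE release is not given in the sources used here. The stated filter removes cells under 500 UMIs or over 10% mitochondrial UMIs. Barcodes under 500 UMIs were present in 7 of the 8 deposited tables and barcodes over 10% in that of the kidney TILs alone.

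Cells were gated as described in the report, and their counts were summed per class and library, and scaled to CPM. Intervals were exact 95% Poisson or binomial limits, and for log2 ratios (pseudocount 1 CPM, at least 50 UMIs over the pair) the limits of both levels were joined. With 1 library per organ no test was made. Doublets were not called, and leaving out the deepest 5% of gated cells was an alternative. For shares of cells with a UMI, cells were thinned to 500 UMIs. Named genes were the 10 highest and 10 lowest ratios per class and pair among genes that the class bore, the 10 leading genes alike in both classes each way, and members of gene lists. Not every gene so chosen is printed. The members, lists and comparisons were chosen with earlier results of these data known. The ratios and intervals were tested on simulated data. Gene positions came from the GENCODE annotation of GRCm38 used here, which held 584 of 587 gated, listed or named genes, and promoters from RefSeq. Scripts ran under Python 3.11.15, with scipy 1.17.1 for exact limits, numpy 2.4.6 and pandas 2.3.3 for sums, and matplotlib 3.10.9 for figures.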

Additional observations from a re-analysis of the deposited data

Results flagged for a closer look

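A few genes moved past 2-fold in opposite directions in T cells and in macrophages, with both counting intervals on their own side of 0. Between the library labelled heart and kidney there were 6 such genes of 10 that moved in opposite directions, and between the library labelled liver and kidney 3 of 8. Between the libraries labelled liver and heart there was none. For each of them the difference between the classes was not tested, and all rest on the kidney library, whose macrophages held few UMIs.

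Cdkn1a, the cell-cycle inhibitor, had a log2 ratio of heart over kidney of 1.09 in T cells and -2.67 in macrophages. Ccl12, the monocyte chemokine, had 1.05 and -1.27 in the same order. Fcgr1, the high-affinity receptor for IgG, had 1.28 and -1.05, and Cadm1, an adhesion molecule, had 2.15 and -1.17. AA467197 had 1.68 and -1.31. Itgax, which encodes CD11c of dendritic cells and macrophages, had 1.40 in T cells and -1.77 in macrophages for heart over kidney, and 1.14 and -1.99 for liver over kidney. Of the remaining genes of liver over kidney, Bcl2a1a, a survival protein of leukocytes, had 1.54 and -1.02 and Zmynd15 had 1.64 and -1.45. Most of these are macrophage genes, and T cells of the libraries labelled heart and liver held more macrophage RNA than those of the kidney library, as their macrophage marker sums of 16443, 15478 and 4593 CPM show. Its part in these ratios was not tested.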

How the results depend on the processing

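The shares of genes past 2-fold and the counts of genes alike in both classes were recomputed under 13 alternatives, of which 1, leaving out T cells with at least 5 C1q UMIs, was chosen after seeing the data. Of 117 values, 103 stayed within 1.5 times. The share in T cells ranged over 4.2 to 8.06% for liver over heart, 22.2 to 32.6% for heart over kidney and 23 to 30.4% for liver over kidney. In macrophages with at least 1000 UMIs, 47.6% of genes were past 2-fold for heart over kidney and 52.1% for liver over kidney, where few kidney cells were left. Counts of genes alike in both classes, given for liver over heart, heart over kidney and liver over kidney, were 393, 936 and 1111 with a minimum of 20 UMIs per gene and 103, 215 and 295 with 200, as fewer genes were then counted. They were 96, 202 and 295 with stricter gates. With cells of at least 1000 UMIs they were 145 for liver over heart and 460 for liver over kidney, and with thinned cells 365 for heart over kidney. Of the printed genes, Gzmb (-0.51) and Ndrg1 (-0.27) reversed in macrophages for liver over kidney at 1000 UMIs per cell, and the cause was not tested. With heart and liver blood exchanged, also chosen after seeing the data, the correlations of graft with blood ratios for liver over heart turned to -0.233 in T cells and -0.140 in macrophages, by construction. A gene under the minimum in an alternative has no value there. Of the ratios of printed genes still counted, a floor of 1000 UMIs per cell moved 77 of 194 in T cells and 61 of 118 in macrophages beyond their intervals, stricter gates 35 of 213 and 45 of 98, and totals without immunoglobulin, haemoglobin and mitochondrial genes 28 of 226 and 10 of 137. Of ratios past 2-fold, 88.1 to 100% stayed past it the same way under each of these and the other alternatives. The 10% mitochondrial filter left out no cell of either class and so moved none. No paired analysis was possible because each organ has 1 library. Kidney depth limits most macrophage values.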
